A study of Mus musculus with 24 samples.

Results

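The potassium channel genes of the mouse, whose symbols begin with Kcn, were followed across liver, brain, heart and skeletal muscle. A probe counted when the accession printed for it on the array belonged to a gene with such a symbol, and the probe with the highest mean over all arrays stood for its gene. This gave 97 genes, read by 135 probes, out of 21368 genes that could be named on the array. Of the 97 genes, 62 had 1 probe, 33 had 2, 1 had 3 and 1 had 4. The set holds 17 voltage-gated pore subunits (Kcna, Kcnb, Kcnc, Kcnd), 10 silent subunits (Kcnf, Kcng, Kcns, Kcnv), 5 Kcnq and 8 Kcnh genes, 12 calcium- or sodium-activated channel genes (Kcnma, Kcnmb, Kcnn, Kcnt, Kcnu), 15 inward rectifiers (Kcnj), 14 tandem-pore channels (Kcnk), 12 auxiliary subunits (Kcnab, Kcne, Kcnip) and 4 noncoding transcripts named after a channel gene (Kcnd3os, Kcnmb4os1, Kcnmb4os2, Kcnq1ot1).

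Potassium channels let potassium leave a cell down its gradient, which holds the resting potential and ends each action potential. Voltage-gated pore subunits open on depolarisation, silent subunits form no channel alone but alter Kcnb channels, inward rectifiers and tandem-pore channels set the resting potential, and calcium-activated channels couple potassium efflux to calcium entry. Auxiliary subunits change the gating or the traffic of the pores. Neurons use many of these genes to shape firing, heart muscle uses a smaller group to repolarise, skeletal muscle fibres rely on inward rectifiers and fast delayed rectifiers, and epithelia, including liver, use others for volume control and secretion.

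The arrays came from 6 male mice, 3 wild type (WT1, WT2, WT3) and 3 homozygous for a Rap1 knock-in (KI1, KI2, KI3, written Rap1 KI/KI), and each mouse gave all 4 tissues, so that there were 24 arrays in 8 groups of 3. The knock-in, made by CRISPR/Cas9 and back-crossed to C57BL/6N mice (C57BL6 in the labels), changes an amino acid that the RAP1 protein needs for binding to TRF2 at telomeres. It is carried by every cell of the mouse, and the genotypes rest on the labels. The age was 5 months in WT1 and KI1 and 2 months in the remaining 4 mice. Whole-tissue RNA was hybridised in 1 colour, and brain and liver RNA was extracted with a different kit from heart and muscle RNA, so kit and tissue cannot be told apart in heart or muscle against liver.

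All levels below are log2 of the background-corrected intensity minus log2 of the 75th percentile of the same array, so that 0 is the 75th percentile and each unit is a doubling of signal. Levels of different probes were not compared with each other. The 75th percentile lay between 470.7 and 529.2 intensity units in muscle and between 569.4 and 1389 in the other tissues, and the lowest level called above background was -5.50 to -5.02 in muscle and -6.74 to -5.27 in the others. Markers of the labelled tissues were present on all arrays: the summed hepatocyte list was at 10.77 to 11.70 in liver, the neuron list at 8.56 to 9.31 in brain, the cardiomyocyte list at 10.56 to 11.43 in heart and the skeletal fibre list at 11.74 to 12.09 in muscle. In whole tissue, fewer cells of a type and less RNA per cell cannot be told apart.

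One muscle array stood apart before any comparison, that of KI3. It had 79 of the 97 channel genes above background, against 51 to 59 on the other muscle arrays. Of all probes, 61.8% were above background on it, against 56.5% to 58.8% on the other muscle arrays. On it 26 channel genes were more than 2 log2 units above the other 5 muscle arrays, while no other array had more than 1 such gene. All 26 were higher in brain than in liver, as were 72 of the 89 channel genes tested there (80.9%). The same count was not made over all probes. Kcnd2 was at 0.16 there against -4.97 or less on the other muscle arrays, and Kcnj4 at 1.86 against -3.13 or less. The summed neuron list was at 6.14 against 3.84 to 4.46, with 7 of 8 genes above background against 5 to 8. The remaining gene, Syt1, had no value on the KI3 array and is not in its sum. The astrocyte list was at 5.68 against 1.32 to 2.84, with 5 of 5 genes against 3 to 4. The oligodendrocyte list, at 6.55, lay within the 5.77 to 6.68 of the other 5, and so did the Schwann cell list. The part of these cells in the muscle results was not tested. The channel gene results named here that moved by over 1.5 times without this array are given without it as well.

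**Figure D1:**
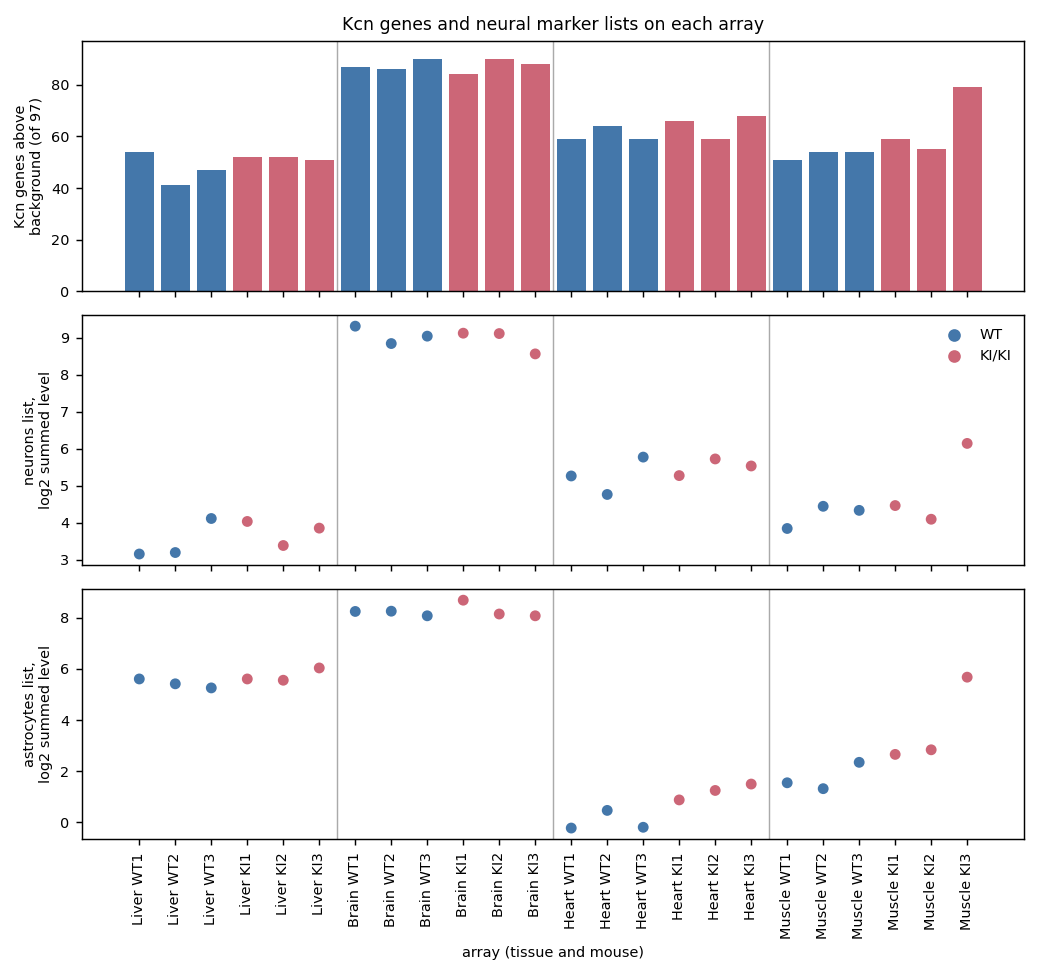
Bars give the number of the 97 channel genes above background on each of the 24 arrays, and points give the summed log2 levels of the neuron and astrocyte marker lists on the same arrays. The muscle array of KI3, with 79 genes, rises above the 51 to 59 of the other muscle arrays, and both marker lists are highest there among muscle arrays.

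To show what lies in front of genes that stood far apart between tissues, the 200 bases upstream of an annotated start (RefSeq, GRCm38.p6) are given for 1 gene far above liver in brain, heart and muscle each and for 1 gene that liver had above all 3. Each had the largest fitted difference among genes with a single window, not counting a gene already shown, and fitted sizes against signals at background have no firm order. The start used for Kcnj12 lies 43.2 kb inside the annotated gene and that of Kcnmb4 0.3 kb inside, so that both windows stand before an inner start. The Kcnmb4 window also lies within the noncoding Kcnmb4os2. Capitals mark GGGCGG or its complement CCGCCC, the core of a GC box.
Kcnmb4, chr10:116473524-116473723, minus strand: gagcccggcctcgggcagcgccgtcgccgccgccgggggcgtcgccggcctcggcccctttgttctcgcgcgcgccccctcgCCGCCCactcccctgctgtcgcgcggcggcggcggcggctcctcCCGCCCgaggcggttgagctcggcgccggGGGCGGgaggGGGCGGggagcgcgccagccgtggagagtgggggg
Kcnd2, chr6:21215146-21215345, plus strand: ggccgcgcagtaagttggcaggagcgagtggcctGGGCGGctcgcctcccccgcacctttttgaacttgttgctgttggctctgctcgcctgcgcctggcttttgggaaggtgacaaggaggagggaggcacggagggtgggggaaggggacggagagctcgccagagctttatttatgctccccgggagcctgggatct
Kcnj12, chr11:61065604-61065803, plus strand: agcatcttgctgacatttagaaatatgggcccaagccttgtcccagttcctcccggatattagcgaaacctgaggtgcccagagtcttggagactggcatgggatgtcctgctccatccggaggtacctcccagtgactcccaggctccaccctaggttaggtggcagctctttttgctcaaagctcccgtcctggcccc
Kcnk5, chr14:20181783-20181982, minus strand: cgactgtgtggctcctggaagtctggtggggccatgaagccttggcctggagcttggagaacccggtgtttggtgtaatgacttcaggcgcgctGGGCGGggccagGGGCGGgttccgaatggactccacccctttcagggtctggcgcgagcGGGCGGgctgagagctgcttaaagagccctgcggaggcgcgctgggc

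Windows were at hand for 71 of the 97 genes, 96 windows in all, and were set beside the 32851 windows of all genes in the table. GGGCGG stood on either strand in 44.8% of the channel windows and in 31% of all windows, and the median GC content was 58.8% against 53%. TATAAA stood in 3.12% against 9.96%, CAGCTG, an E-box, in 17.7% against 10.9%, and TGACG, the core of a cAMP response element, in 13.5% against 15.7%. No motif contains another, and CAGCTG and TGACG can share their end letters. The Kcnmb4 window had 84% GC and the Kcnk5 window 66.5%, while the Kcnj12 window held no GGGCGG and had 56.5%. A match describes the letters of the window and was not tested as a site or as a cause of the levels.

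Brain had the widest repertoire. On all 6 arrays of the tissue, 83 of the 97 genes were above background in brain, 53 in heart, 48 in muscle and 39 in liver. In all 4 tissues 27 genes were so, and Kcnip3 was not counted in brain, where 1 array had no value for it. In percent the tissue counts were 85.6% of the channel genes in brain, 54.6% in heart, 49.5% in muscle and 40.2% in liver. Of all 55681 probes, 58.3%, 54.1%, 51.7% and 54.9% were above background on all 6 arrays. Another 26 genes were above background on all 6 arrays of 1 tissue only, 23 of them in brain. Among these 23 were Kcnq3 of the M-current, the silent subunits Kcng1, Kcns1, Kcns2 and Kcnv1, and the Kcnh genes Kcnh1, Kcnh5, Kcnh6, Kcnh7 and Kcnh8. The remaining 3 of the 26 included Kcnn4 in liver and Kcnv2 in heart. Kcna10, Kcnh6 and Kcnmb2 were above background on no array outside brain with any of their probes. In 8 genes no tissue had all 6 arrays above background, and 2 of these, Kcne1, a partner of Kcnq1 in the heart, and Kcnj1, the kidney channel ROMK, were above background on no array at all.

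Of the 91 channel genes tested in at least 1 tissue, 59 (64.8%) had their highest mean in brain, 12 (13.2%) in heart, 11 (12.1%) in liver and 9 (9.89%) in muscle. Among all 42463 probes tested, the shares were 26.1%, 17%, 34.5% and 22.4%. The 6 arrays of the highest tissue did not overlap those of any other tissue for 48 of the 59 brain genes, 8 of the 12 heart genes, 6 of the 11 liver genes and 5 of the 9 muscle genes.

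**Figure D2:**
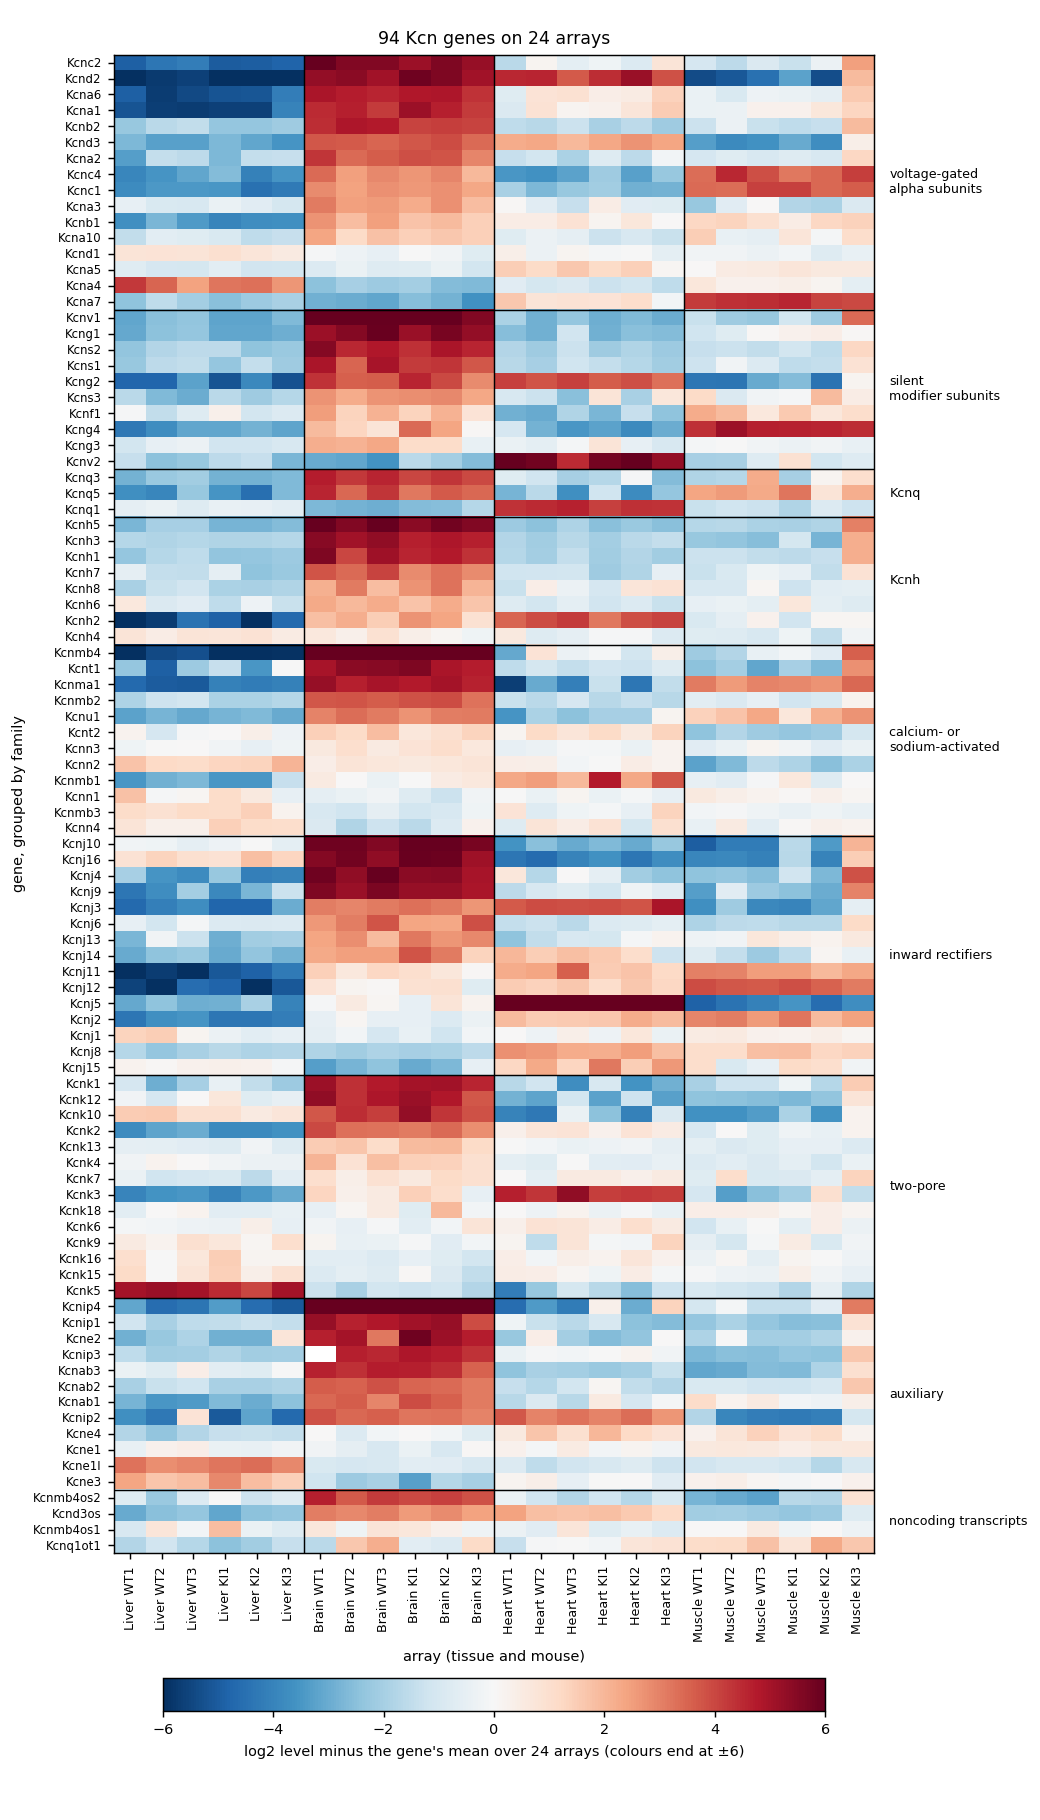
Each row is 1 of 94 channel genes and each column an array, grouped by tissue. Colour gives the level minus the mean of the gene over the 24 arrays in log2 units, ending at 6 above and below, and the white cell is Kcnip3 in brain of WT1, whose spot was flagged as an outlier by the scanner software. Rows marked two-pore are the tandem-pore genes. Most rows are reddest, that is highest, in the brain columns, and smaller blocks are highest in heart, in muscle or in liver.

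Brain was compared with liver to ask which channel genes the nervous tissue holds above a tissue without excitable cells. A gene was tested where at least 3 of the 6 arrays of either tissue had it above background, and it was called with an adjusted p under 0.05 by the moderated test of limma, adjusted over all probes tested. A gene present in only 1 of the tissues had to differ under this rule, so the counts describe the genes tested. Of 89 channel genes tested, 72 (80.9%) were higher in brain, where 34.2% of all 41238 probes were, and 13 (14.6%) were lower, where 46.3% of all probes were. The median difference was 5.04 on the log2 scale, and it was -0.35 over all probes. With a model-based background correction (normexp), which lifts the dimmest signals, it was 2.83 and -0.28. By family, 13 of 17 voltage-gated pore genes, 9 of 9 tested silent subunits, 7 of 8 Kcnh genes, 12 of 14 tested inward rectifiers, 8 of 10 tested calcium- or sodium-activated genes and 9 of 11 tested auxiliary subunits were higher. The tandem-pore genes were the most mixed, with 8 higher, 4 lower and 1 not called.

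Among the largest differences was that of a subunit of the large-conductance calcium-activated (BK) channel. Kcnmb4, the neuronal beta subunit of BK, ran from 4.37 to 5.16 in brain with a median of 4.55, and from -8.14 to -7.29 in liver, where no array was above background. The difference was 12.46 (SE 0.63, adjusted p = 6.8e-13), at least 1450-fold. For this bound, the dim tissue was given, on each array, its lowest signal called above background, or the signal of the probe where that was higher. The same bound is given where only some arrays of the dim tissue were above background, with their number, and it holds for the probe that stands for the gene. Kcnq3 and Kcnq5, pores of the M-current, the slow current that limits repetitive firing, were also above background on every brain array and on no liver array, by at least 23.4-fold and at least 65.3-fold. Kcnma1, the pore of BK, ran from 4.54 to 5.12 in brain and from -5.11 to -4.14 in liver, a difference of 9.37 (SE 0.43) or 661-fold between levels that were above background on all 12 arrays.

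The A-type and axonal pores were higher in brain too. Kcnd2, which carries the A-type current of dendrites, ran from 3.29 to 4.11 in brain with a median of 3.62 and from -8.16 to -7.36 in liver (difference 11.51, SE 0.74, at least 725-fold). Its auxiliary subunit Kcnip4 differed by 10.85 (SE 0.70, at least 735-fold) and Kcnip3 by 6.54 (SE 0.52), the latter over 5 brain arrays. A second Kcnip3 probe gave -0.76, with 4 brain arrays and 6 liver arrays above background. Kcnip2, the third of these partners, differed by 6.72 (SE 0.71), although 1 liver array, that of WT3, was at -2.38 and above background and the other 5 were at -6.35 or less. Kcna1 and Kcna6, pores of the axon membrane, differed by 9.85 (SE 0.32, at least 862-fold) and 9.76 (SE 0.35, at least 867-fold), with 4 and 5 liver arrays above background. Kcna1 ran from 4.13 to 5.07 in brain and from -5.77 to -4.08 in liver, with no overlap. Kcnc2, a fast delayed rectifier of rapidly firing interneurons, differed by 10.22 (SE 0.46, at least 258-fold), and its relatives Kcnc1 and Kcnc4 by 6.43 and 6.19. Every one of the 11 genes listed for axons and the M-current was higher, with a median difference of 6.87.

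In liver, 7 of the 10 silent subunits and 6 of the 8 Kcnh genes were above background on no array with any of their probes. Kcnv1 ran from 0.53 to 2.20 in brain and from -8.19 to -7.39 in liver (difference 9.20, SE 0.60, at least 148-fold), and Kcng1 and Kcng2 differed by 8.28 (SE 0.26, at least 76.4-fold) and 8.32 (SE 0.55, at least 118-fold). A second Kcng2 probe, above background on 2 liver arrays, gave 3.13. Among the Kcnh genes, which include the EAG and ERG channels, Kcnh5 (8.28, SE 0.56, at least 65.8-fold), Kcnh2 (7.22) and Kcnh1 (6.80) were compared with livers at background. Kcnh3 differed by 6.75 (SE 0.49, 107-fold) between levels above background on all 12 arrays. The brighter Kcnh4 probe was at -0.27 to 0.94 in brain and 0.47 to 0.87 in liver (difference -0.34, SE 0.25, adjusted p = 0.20), above background on all 12 arrays, and the dimmer one, above background on 5 brain arrays and no liver array, gave 3.07. Kcnt1, a sodium-activated channel, differed by 7.55 (SE 0.73, at least 141-fold, 4 liver arrays above background), and Kcnu1, known as the sperm channel Slo3, by at least 46.2-fold.

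The inward rectifiers of brain included neuronal and glial genes. The G protein-gated Kcnj9, Kcnj3 and Kcnj6 differed by 8.30 (SE 0.76), 7.19 (SE 0.46) and 3.70 (SE 0.39), and Kcnj4 by 8.80 (SE 0.77). In liver Kcnj9 was above background on 1 array, Kcnj4 and Kcnj6 on 2 and Kcnj3 on none. Kcnj10, the astrocyte channel that takes up potassium, ran from 4.90 to 5.64 in brain with a median of 5.18 and from -1.21 to -0.65 in liver, a difference of 6.19 (SE 0.55) or 73.1-fold. Its partner Kcnj16 ran from 1.67 to 2.55 against -2.54 to -1.57, a difference of 4.40 (SE 0.56). Liver was above background on all 6 arrays for both. Kcnj8, the pore of the vascular ATP-sensitive channel, was at a median of -2.81 in brain and -2.74 in liver (difference 0.01, SE 0.18, adjusted p = 0.98).

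On the liver side, Kcnk5 (TASK-2, an acid-sensitive channel of epithelia) and Kcna4 (a fast-inactivating pore) had the largest differences. Kcnk5 ran from 0.29 to 1.47 in liver with a median of 1.28, from -5.64 to -4.81 in brain, from -7.85 to -4.76 in heart and from -5.52 to -4.27 in muscle. Liver was thus above all 18 other arrays, by 72.5-fold against brain (log2 difference of brain against liver -6.18, SE 0.38), at least 84.2-fold against heart and at least 62.7-fold against muscle, where 3 and 4 arrays were above background. Kcna4, read by a single probe, ran from 5.48 to 7.31 in liver, from 2.47 to 3.76 in muscle, from 1.54 to 2.40 in heart and from 0.42 to 1.10 in brain, and none of the 4 tissues overlapped. The liver level was 46.3-fold that of brain (log2 difference of brain against liver -5.53, SE 0.25), 19.7-fold that of heart and 8.21-fold that of muscle.

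Kcnq1 and its epithelial partner Kcne3 were lower in brain than in liver as well. Kcne3 ran from -1.85 to -0.41 in liver and from -6.57 to -4.50 in brain (difference -4.07, SE 0.28, adjusted p = 8e-11), and it was also lower in heart (-2.13, SE 0.28) and in muscle (-1.86, SE 0.28). Kcnq1 was at -3.49 to -2.29 in brain and -1.35 to -0.95 in liver (difference -2.01, SE 0.17, adjusted p = 1.9e-09). Smaller differences below liver were those of Kcnj15 (-2.61), Kcnn4 (-1.84), Kcnk15 (-1.51), Kcnk16 (-1.32), Kcnd1 (-1.06), Kcna7 (-0.91), Kcnk9 (-0.86) and Kcnn2 (-0.80). Kcnn2, a small-conductance calcium-activated channel, ran from 3.14 to 4.10 in liver, from 2.47 to 2.84 in brain, from 1.88 to 2.53 in heart and from -1.17 to 0.49 in muscle. The call for Kcne1l, an auxiliary subunit related to Kcne1, depended on the probe: the brighter one gave -3.92 (SE 0.16) and the other gave 8.08. Opposite signs between the probes of a gene occurred in 5 of the 31 genes with more than 1 probe tested in brain against liver, and in 3 genes in each of the other comparisons. In brain these were Kcna7, Kcne1l, Kcnh4, Kcnh6 and Kcnip3.

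Where the probes of a gene shared a sign in brain against liver, the size still depended on the probe. The other probe of Kcnmb4 gave 8.06, that of Kcnip4 6.46, that of Kcna6 5.30, that of Kcnq5 4.49 and that of Kcnj3 4.45. The remaining probes of Kcnc1 gave 9.61 and 10.95, and those of Kcnma1 gave from 5.97 to 7.93. For Kcnq1 they were close, at -2.01 and -1.97.

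**Figure D3:**
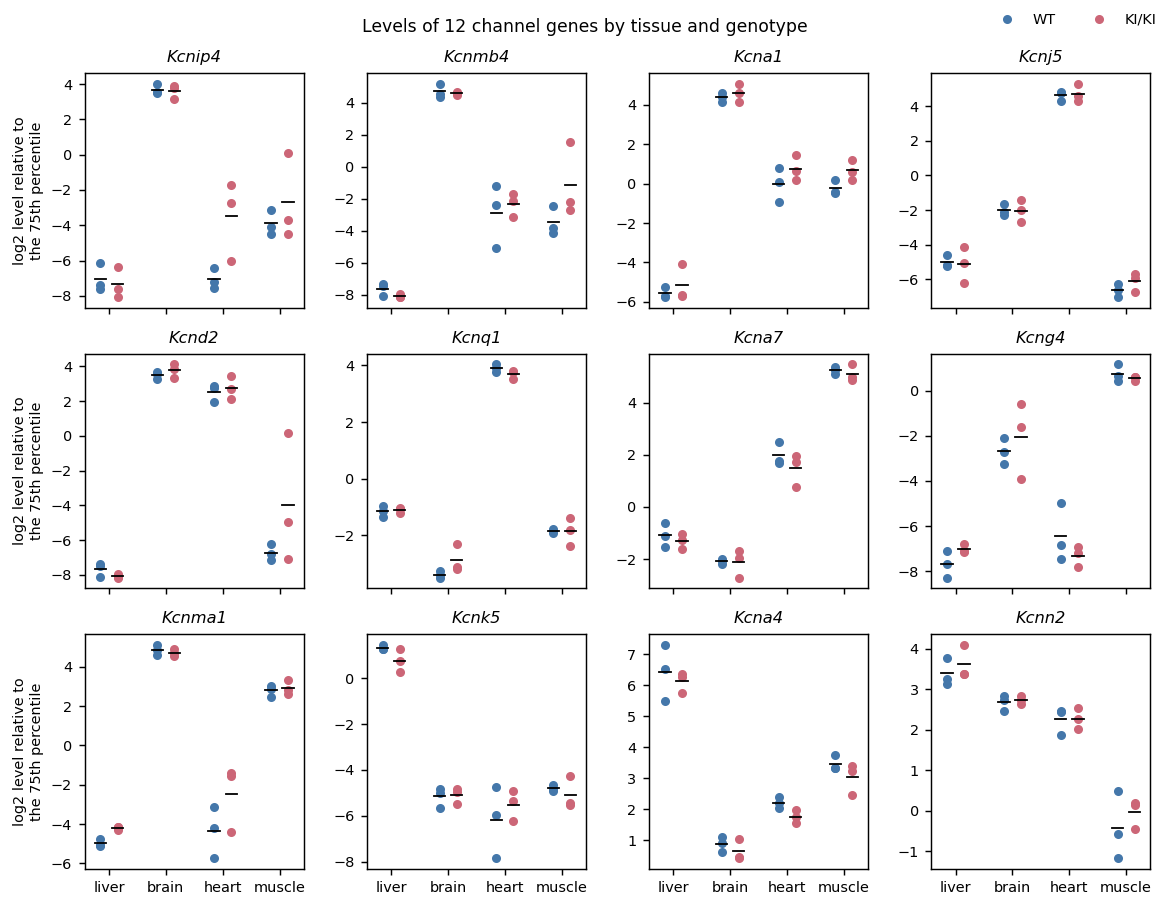
Each panel shows 1 channel gene, with log2 level relative to the 75th percentile on the vertical axis and the 4 tissues along the horizontal axis. Each point is 1 mouse, wild type in blue and Rap1 KI/KI in red, and each line is the mean of 3. Kcnip4, Kcnmb4 and Kcna1 are highest in brain, Kcnj5 and Kcnq1 in heart, Kcna7 and Kcng4 in muscle and Kcnk5 and Kcna4 in liver, and the single high muscle point of Kcnip4, Kcnmb4 and Kcnd2 is KI3.

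Heart was compared with liver for the genes that repolarise heart muscle. Of 67 channel genes tested, 40 (59.7%) were higher in heart, where 34% of all 38713 probes were, and 14 (20.9%) were lower, where 37.4% were. The median difference was 1.23, against -0.07 over all probes, and 0.57 against 0.09 without the filter on dim probes. Inward rectifiers were higher in 11 of 13 genes tested, with a median of 3.77, and voltage-gated pores in 10 of 15. Of the 15 genes listed for cardiac repolarisation, 13 were higher, Kcna4 was lower and Kcne1 was not tested, with a median of 6.66 over the 14 tested.

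Kcnd2, which also carries the transient outward current of the mouse heart, ran from 1.93 to 3.43 in heart with a median of 2.74 (difference from liver 10.50, SE 0.74, at least 361-fold). Its relative Kcnd3 differed by 5.41 (SE 0.44) and their partner Kcnip2 by 6.49 (SE 0.71). Kcnh2, the ERG pore of the rapid delayed rectifier, ran from 1.23 to 2.24 in heart and from -8.11 to -6.37 in liver, where it was above background on no array (difference 9.10, SE 0.37, at least 208-fold). Kcnq1, the pore of the slow delayed rectifier, ran from 3.51 to 4.04 in heart with a median of 3.80, above every array of the other tissues, and differed from liver by 4.93 (SE 0.17) or 30.4-fold. Heart and liver did not overlap for any of these genes.

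The acetylcholine-activated channel of the atria is built from Kcnj3 and Kcnj5. Kcnj5 ran from 4.28 to 5.29 in heart with a median of 4.68, from -2.70 to -1.44 in brain, from -6.23 to -4.14 in liver and from -7.04 to -5.72 in muscle. It was at least 838-fold higher in heart than in liver (9.75, SE 0.31), where 4 arrays were above background. Kcnj3 ran from 0.09 to 1.28 in heart and from -8.34 to -6.56 in liver (8.15, SE 0.46, at least 77.2-fold). Both pores were thus above background on all 6 heart arrays. The atrial gene Myl7 was at -2.41 in the WT1 heart and at 5.03 to 8.33 in the other hearts. In the WT1 heart Kcnj5 was at 4.33 and Kcnj3 at 0.09, against 4.28 to 5.29 and 0.16 to 1.28 in the others. The part of the atria in these levels was not tested. The ATP-sensitive pore Kcnj11 differed by 7.57 (SE 0.26, at least 91.8-fold, 1 liver array above background), or by 4.57 with its dimmer probe, and the vascular pore Kcnj8 by 4.22 (SE 0.18). The strong inward rectifiers Kcnj12 and Kcnj2, which hold the resting potential of muscle, differed by 6.84 (SE 0.32) and 5.85 (SE 0.21, at least 15-fold).

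Other genes high in heart were the leak channel Kcnk3 (TASK-1) and a pair of silent subunits. Kcnk3 ran from 4.13 to 5.32 in heart with a median of 4.23 and from -4.05 to -3.03 in liver (8.06, SE 0.46, 266-fold). Kcnv2 ran from -0.83 to 0.81 in heart, where alone it was above background on all 6 arrays (7.56, SE 0.37, at least 70.8-fold against liver). Kcng2 ran from 0.50 to 1.31 in heart and from 0.04 to 1.75 in brain, and those ranges overlapped. Kcnk5, Kcna4, Kcne3 and Kcne1l were among the 14 genes lower in heart than in liver, Kcne1l only by its brighter probe (-4.14, the other giving 4.27). Others were Kcnj16 (-5.30, SE 0.56, at least 10.9-fold), Kcnk10 (-3.72, SE 0.65), Kcnj10 (-2.53, SE 0.55) and Kcnk12 (-2.18, SE 0.53). Kcnj16 was above background on all 6 liver arrays and on no heart array.

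The heart arrays of KI1 and KI3 had a summed smooth muscle list of 8.48 and 7.87, against 6.12 to 6.90 on the other 4, and a summed adipocyte list of 8.57 and 9.35, against 7.83 to 8.14. On these arrays 8 of 8 genes of the neuron list were above background, against 5 to 6 on the other 4. Their summed neuron list, at 5.27 and 5.53, lay within the 4.76 to 5.77 of the other 4. Kcnmb1, the smooth muscle beta subunit of BK, was highest on these arrays, at -0.05 and -1.12 against -2.87 to -2.32 on the other 4. Without them 36 genes were higher and 14 lower in heart than in liver. Kcnma1 then went from 1.19 to 0.21 (adjusted p = 0.63) and the silent subunit Kcns3 from 1.23 to 0.35 (adjusted p = 0.53), and Kcnj4, Kcnu1 and Kcnk15 lost their calls too. Kcnk10 went to -4.52 and Kcnk12 to -1.52, while Kcnn4 was called lower (-1.27, adjusted p = 0.0084). The part of these cell types in the heart results was otherwise not tested.

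In muscle against liver, 32 of 63 channel genes tested (50.8%) were higher, where 36.1% of all 37933 probes were, and 20 (31.7%) were lower, where 38.9% were. The median difference was 0.96, against -0.08 over all probes. Without the muscle array of KI3, 30 were higher and 21 lower, with a median of 0.62. The calls that changed were those of Kcnj4 (from 2.05 to 1.09, adjusted p = 0.05), Kcnip3 (from 0.12 to -0.54, adjusted p = 0.0027) and Kcnmb1, which was no longer tested. Of the 62 genes tested without it, 9 moved by over 1.5 times, all 9 downward. Of the 10 genes listed for skeletal muscle, 8 were higher, Kcne3 was lower and Kcnn3 was not called, with a median of 6.54. Voltage-gated pores were higher in 10 of 14 genes tested, whereas tandem-pore genes were lower in 7 of 12.

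The inward rectifiers that hold the resting potential of muscle fibres and the ATP-sensitive pore were higher in muscle than in liver. Kcnj12 ran from 3.65 to 4.47 in muscle with a median of 4.26, from 1.61 to 2.15 in heart, from -0.19 to 1.49 in brain and from -5.81 to -4.04 in liver, so that no tissues overlapped. It was at least 534-fold higher in muscle than in liver (9.08, SE 0.32), where 5 arrays were above background. Kcnj11 ran from 0.54 to 1.64 in muscle (8.02, SE 0.26, at least 125-fold, 1 liver array above background), its dimmer probe giving 5.37, and Kcnj2 from -1.87 to -0.53 (6.73, SE 0.21, at least 27.6-fold). Among the fast delayed rectifiers, Kcnc1 ran from 3.12 to 3.87 in muscle (7.49, SE 0.21, 180-fold), and Kcnc4, the Kv3.4 pore, from 2.45 to 3.81 (7.20, SE 0.29, 147-fold). Kcna7, a pore known from skeletal and heart muscle, ran from 4.85 to 5.47 in muscle, from 0.75 to 2.51 in heart, from -1.60 to -0.60 in liver and from -2.71 to -1.67 in brain (6.36, SE 0.24, 82-fold against liver). The dimmer Kcna7 probe, also above background on all arrays, gave 0.93 in muscle, 0.39 in heart and 0.67 in brain against liver, the last with the opposite sign. For each of these pores the 6 muscle arrays lay above all 6 liver arrays.

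Kcng4, a silent subunit, ran from 0.41 to 1.17 in muscle and stayed at -0.58 or less on all other arrays (8.01, SE 0.46, at least 91.9-fold against liver). The BK pore Kcnma1 ran from 2.48 to 3.34 (7.44, SE 0.43, 174-fold), between the levels of brain and heart. Kcnq5 ran from -2.81 to -0.39 (5.66, SE 0.48, at least 22.5-fold). Kcnk5, Kcna4, Kcne3 and the brighter Kcne1l probe (-4.21, the other giving 4.42) were lower than liver without overlap. Others lower without overlap included Kcnn2 (-3.73, SE 0.24, 13.3-fold), Kcnk10 (-3.70, SE 0.65), Kcnt2 (-1.85, SE 0.26) and Kcnh4 (-1.41, SE 0.25). Kcnj16 was also lower (-3.85, SE 0.56), with the KI3 array at -1.90 within the liver range and the other 5 at -5.05 or less, and without KI3 the difference was -4.57.

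Heart and muscle, both striated and extracted with the same kit, were compared directly. Of 68 channel genes tested, 22 (32.4%) were higher in heart, where 24.6% of all 35963 probes were, and 19 (27.9%) were lower in heart, where 25.1% of all probes were. The median difference was 0.22, against -0.02 over all probes, and its sign turned to -0.19 with normexp and to -0.07 without the filter on dim probes, where all probes were at -0.22 and -0.21. The cardiac list had 9 genes higher in heart, 4 lower and 1 not called, with a median of 4.65. In the skeletal muscle list no gene was higher in heart, 7 were lower and 3 were not called, with a median of -1.56.

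On the heart side stood Kcnj5, at least 946-fold higher than in muscle (11.06, SE 0.31), where it was above background on no array. Kcnd2 differed by 7.98 (SE 0.74, at least 115-fold), with 2 muscle arrays above background, and without the KI3 array by 9.01 (SE 0.33). Kcng2 (6.91, at least 53-fold), Kcnj3 (6.89, at least 41.8-fold), Kcnv2 (6.54, at least 40.5-fold) and Kcnip2 (6.35, at least 30.6-fold) were each above background on 1 muscle array. Kcnk3 (6.04, SE 0.46), Kcnq1 (5.66, SE 0.17, 50.5-fold), Kcnd3 (5.17, SE 0.44) and Kcnh2 (4.13, SE 0.37) were above background in both tissues and did not overlap. Muscle levels of Kcnk3 ran from -3.32 in WT2 to 0.93 in KI2, the muscle arrays with the lowest and highest summed adipocyte list (7.58 and 10.44). The part of fat in the muscle level of Kcnk3 was not tested. On the muscle side were Kcng4 (-7.52, SE 0.46, at least 74.3-fold, 1 heart array above background), Kcnc4 (-6.73, SE 0.29, 106-fold), Kcnma1 (-6.26, SE 0.43, at least 74.8-fold, 5 heart arrays above background) and Kcnc1 (-6.12, SE 0.21, 69.6-fold). Kcnq5 (-4.79), Kcnu1 (-3.79), Kcnf1 (-3.72), Kcna7 (-3.44) and Kcnj12 (-2.24) were also higher in muscle without overlap, Kcna7 by less with its dimmer probe (-0.54). Among the voltage-dependent pores, Kcnd2, Kcnd3, Kcnq1 and Kcnh2 were therefore on the heart side and Kcnc1, Kcnc4 and Kcna7 on the muscle side.

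Without the muscle array of KI3, 25 genes were higher in heart and 18 lower, with a median of 0.38, and 11 of 68 genes moved by over 1.5 times, all toward heart. Kcnd3 went to 5.79 and Kcng2 to 7.52. Kcna3, Kcna6, Kcnj9 and Kcnmb4os2 were then called higher in heart and Kcnk5 lower, and Kcnip4, Kcnk1 and Kcnk13 lost their calls. Without the heart arrays of KI1 and KI3, 6 genes moved by over 1.5 times, among them Kcnma1 to -7.23 and Kcnq5 to -5.46. The slide that held both tissues had all muscle arrays but only the hearts of WT3 and KI3. Within it the median difference over the channel genes was 0.26, against 0.1 over all probes. With all arrays, Kcnj11 differed by -0.45 (SE 0.26, adjusted p = 0.17) and Kcna1 by 0.16 (SE 0.32, adjusted p = 0.72).

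**Figure D4:**
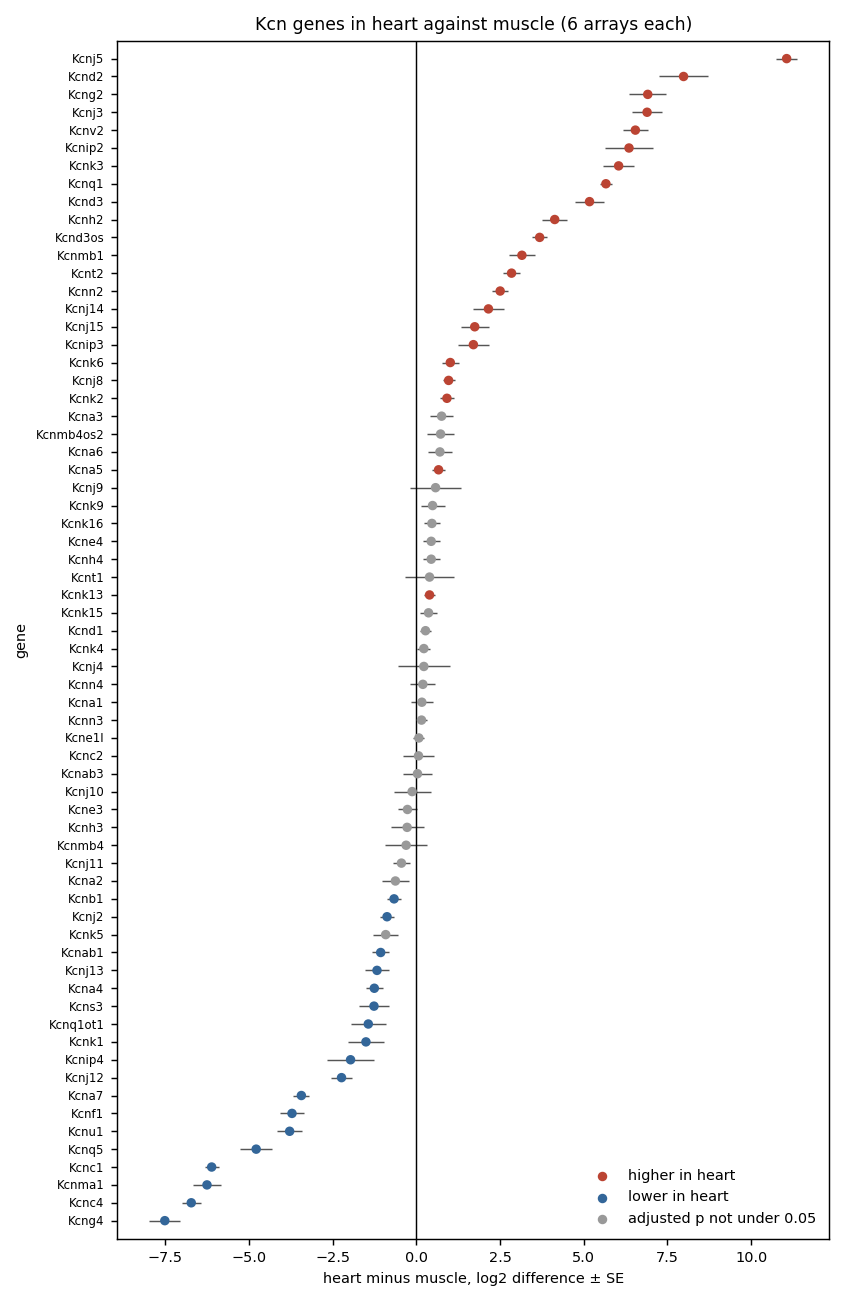
The log2 difference of heart minus muscle is plotted with its standard error for 66 channel genes tested, ordered by size. All 12 arrays are included. Kcnj5, at 11.06, and Kcnd2, at 7.98, lie at the heart end, and Kcng4, at -7.52, and Kcnc4, at -6.73, at the muscle end.

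Genes that work with these channels were read from a list of 18. Of them, 13 were higher, 2 lower and 1 not tested in brain against liver, where 34.2% of all probes tested were higher and 46.3% lower. In heart 11 were higher, 4 lower and 1 not tested, beside 34% higher and 37.4% lower of all probes. In muscle 9 were higher, 2 lower and 3 not tested, beside 36.1% higher and 38.9% lower of all probes. The muscle counts include the KI3 array and were not recomputed without it. Dlg4 was at 1.07 there against -2.49 to -1.38 on the other muscle arrays, and Dpp10 at -0.77 against -6.41 to -4.36. Abcc9 and Amigo1 were lowest on the KI3 array among muscle arrays. In brain the largest included Cntnap2, which holds Kcna channels beside the node of Ranvier (10.14, at least 349-fold), Lgi1, a secreted protein that acts on them (9.15, at least 164-fold), and the scaffold Dlg4 (8.58). Dpp10 and Dpp6, auxiliary proteins of Kcnd channels, differed by 6.92 and 5.72. Abcc8 and Abcc9 encode the sulphonylurea receptors that join Kcnj11 and Kcnj8 in ATP-sensitive channels. Abcc8 was above liver in brain (5.21), heart (7.11) and muscle (3.45), and was 3.66 (SE 0.24) higher in heart than in muscle. Abcc9 was lower than liver in brain (-2.77) and higher in heart (3.12) and muscle (3.05), and it differed by 0.06 between heart and muscle, which did not pass the test. Lrrc38, a gamma subunit of BK, differed between heart and muscle by -3.86, and its pore Kcnma1 by -6.26.

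Some channel genes lie next to each other on a chromosome, 10 adjacent pairs made of 18 genes. Neighbours did not always share a pattern. On chromosome 11, Kcnj2 was higher than liver in heart (5.85) and muscle (6.73), and its neighbour Kcnj16 was lower in both (-5.30 and -3.85). On chromosome 1, Kcnj9 and Kcnj10 were both higher in brain (8.30 and 6.19), and in heart Kcnj9 was higher (2.13) and Kcnj10 lower (-2.53). On chromosome 16, Kcnj6 was higher in brain (3.70) and Kcnj15 lower (-2.61). Kcna1 and Kcna6 on chromosome 6 were higher in all 3 tissues, while Kcna5 beside them was higher in heart (2.10) and muscle (1.44) and at 0.24 in brain (adjusted p = 0.27). A second Kcna5 probe gave 5.54, 8.43 and 7.53 in brain, heart and muscle against liver, with the same sign and a larger size. On chromosome 14, Kcnk5 and Kcnk16 were both lower in brain and in muscle.

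Between genotypes, no channel gene was called in any tissue after adjustment, of 50 tested in liver, 89 in brain, 63 in heart and 55 in muscle. Over all probes 0% were called in liver, 0% in brain, 0% in heart and 0% in muscle as well. At an unadjusted p under 0.05 by limma, 4 genes in liver (8%), 5 in brain (5.62%), 4 in heart (6.35%) and 2 in muscle (3.64%) passed, beside 2.13%, 2.62%, 7.51% and 2.48% of all probes. The median difference of Rap1 KI/KI minus wild type over the channel genes was 0.04 in liver, -0.10 in brain, 0.18 in heart and 0.16 in muscle, and over all probes -0.01, -0.05, -0.02 and -0.07. The genotypes did not overlap for 5 genes in liver (10%), 9 in brain (10.1%), 4 in heart (6.35%) and 4 in muscle (7.27%), beside 5.84%, 7.73%, 14.7% and 6.44% of all probes. In brain, 8 of those 9 (88.9%) were lower in Rap1 KI/KI, beside 48.3% of all probes without overlap. In liver 2 of 5 (40%) were lower, in heart 3 of 4 (75%) and in muscle 0 of 4, beside 52.5%, 59% and 63.4% of all such probes. These directions were not tested.

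The gene with the smallest p in heart was Kcnj11, the pore of the ATP-sensitive channel. Wild-type hearts were at 0.83, 0.96 and 2.18 and Rap1 KI/KI hearts at 0.14, 0.31 and -0.18. The genotypes did not overlap, and the difference was -1.24 (SE 0.39, adjusted p = 0.65 by limma). Its dimmer probe was at -0.90, -1.93 and -1.23 in wild type and at -1.58, -1.32 and -1.54 in Rap1 KI/KI, which overlapped. The other heart genes with an unadjusted p under 0.05 were Kcnj13 (1.31, SE 0.47), Kcnab1 (1.23, SE 0.44) and Kcnc4 (0.92, SE 0.34), all with an adjusted p of 0.65 and overlapping genotypes. In Kcnab1, a beta subunit of Kcna channels, the KI1 and KI3 hearts were at 0.76 and 0.16 and that of KI2 at -0.79, beside wild-type hearts at -1.47, -0.64 and -1.44. Kcnc4 was likewise higher in KI1 (-2.81) and KI3 (-2.95) than in KI2 (-3.95). KI1 and KI3 are the same 2 hearts that stood apart in smooth muscle and adipocyte markers and in the number of neuron genes above background. The part of those cells in these differences was not tested. Kcnk3 (-0.58) and Kcna4 (-0.45) were lower and Kcnd3 (0.32) higher in all 3 Rap1 KI/KI hearts than in all wild-type hearts, without passing the test.

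In brain, the 5 genes with an unadjusted p under 0.05 were all lower in Rap1 KI/KI, with an adjusted p of 1. Kcng3, a silent subunit, was at -4.87, -4.98 and -4.71 in wild type and at -5.93, -5.93 and -7.51 in Rap1 KI/KI, where 1 of 3 arrays was above background (difference -1.60, SE 0.45). Kcnh7, of the ERG group, was at -2.15, -2.53 and -1.87 in wild type and at -3.10, -2.67 and -3.11 in Rap1 KI/KI (-0.78, SE 0.24). Kcnb2, a delayed rectifier, was at -1.48, -1.09 and -1.14 against -1.88, -1.79 and -1.87 (-0.61, SE 0.18). Kcnh3 and Kcnip2 differed by -0.54 (SE 0.19) and -0.49 (SE 0.18). All 5 genes had every Rap1 KI/KI brain below every wild-type brain. The brain of KI3 had 11 channel genes more than 1 log2 unit below the wild-type mean and the lowest neuron list of the 6 brains, at 8.56, and the part of that in these differences was not tested.

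Liver differences were small. Kcnma1 was at -4.76, -5.06 and -5.11 in wild type and at -4.14, -4.30 and -4.14 in Rap1 KI/KI (0.79, SE 0.20, adjusted p = 1 by limma). Kcnn4, an intermediate-conductance calcium-activated channel, was at -3.61, -4.08 and -4.06 against -2.95, -3.28 and -3.30 (0.74, SE 0.22), and Kcne4 differed by 0.58 (SE 0.23). These 3 genes had every Rap1 KI/KI liver above every wild-type liver. Kcnk10 differed by -0.61 (SE 0.25) with overlap.

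In muscle, Kcnj10 was at -5.57, -4.84 and -4.83 in wild type and at -2.24, -4.05 and 1.38 in Rap1 KI/KI (3.45, SE 1.23, adjusted p = 0.94 by limma), the highest value being that of the KI3 array with its high astrocyte list. Without that array the difference was 1.94 (SE 0.54). Kcna1 was at -0.46, -0.40 and 0.17 against 0.19, 0.61 and 1.21 (0.90, SE 0.32), and without KI3 it was 0.63, no longer under an unadjusted p of 0.05. The median over the channel genes in muscle was 0.16 with KI3 and 0.06 without it, and no probe was called either way.

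Whether the genotype difference itself differed between tissues was tested by an interaction over all 24 arrays. None of 91 channel genes passed after adjustment, as 0% of all 42463 probes did, and 7 (7.69%) had an unadjusted p under 0.05, beside 2.93% of all probes. Kcnj11 had the smallest, 0.00031 by limma (adjusted p = 1), followed by Kcnab1 at 0.013 and Kcnj10 at 0.019.

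**Figure D5:**
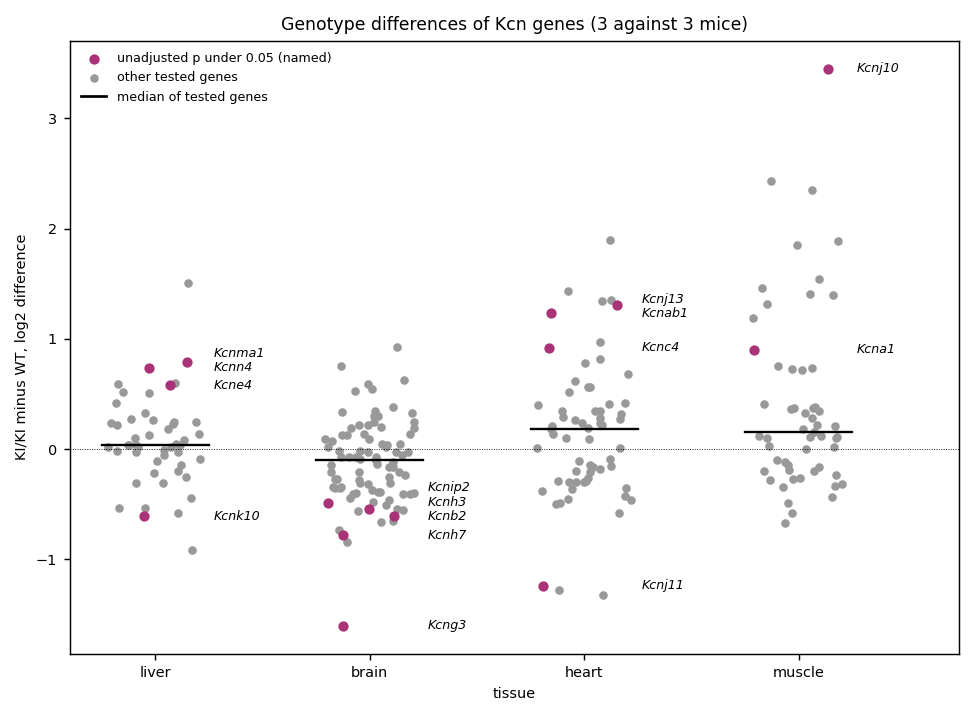
Rap1 KI/KI minus wild type on the log2 scale is plotted for each channel gene tested in each tissue, with a line at the median (0.04 in liver, -0.10 in brain, 0.18 in heart, 0.16 in muscle). Named points are the genes with an unadjusted p under 0.05, of which none passed after adjustment, and Kcnj10 in muscle, at 3.45, lies furthest from 0.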

How the data were processed

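RNA from 4 tissues of 6 mice was labelled with Cy3 by the authors and hybridised to Agilent arrays, which were read with Feature Extraction 12.0.3.1, per the file headers. The deposited scanner files hold each spot's intensity after background correction (the processed signal). The authors also deposited a table of z-scores, a score without a stated unit, which recomputation from log intensities matched within 0.005 and which served as an alternative. Control spots and flagged outliers were left out, log2 intensities were scaled to the 75th percentile of each array, and probes were named through their accessions (28331 of 55681 probes). Tissues were compared in R 4.3.3 with limma 3.58.1, in 1 model of 24 arrays and 8 groups, and genotypes within the 6 arrays of a tissue. A probe was tested where 3 or more of the 6 arrays of a tissue had it above background, and p-values were adjusted by Benjamini-Hochberg over all probes tested. The study states no test for the arrays. The fits were tested on simulated data. The number of arrays limits the precision.

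The genes named were, in each tissue comparison, up to 8 rising and 8 falling channel genes of largest size without overlap between tissues, genes with an unadjusted p under 0.05 between genotypes, and genes of the lists. Some genes are counted but not reported by name here, and are left out of the plots by gene. Members and lists were chosen with earlier results of these data known. The 4 tissues of a mouse share an animal. Same-mouse arrays correlated at -0.30 to 0.36 (median 0.07) over 36 pairs of deviations from group means, with 16 over 0.1, and a fit with the mouse as a block was an alternative. Others were quantile normalisation, normexp background correction (on median signals), filters, slide, age and left-out arrays.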

Additional observations from a re-analysis of the deposited data

How the results depend on the processing

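Depth of signal limits the dimmest genes, above all in muscle, where intensities were lowest. With the mouse as a replicate block, 72 genes were higher and 13 lower in brain than in liver, 41 and 14 in heart, 32 and 20 in muscle, and 22 and 19 in heart against muscle. All channel genes called without this block were called with it, 1 more was called in heart, and no genotype or interaction call appeared. Leaving out 1 mouse at a time gave 71 to 72 higher and 12 to 13 lower in brain, 36 to 40 and 13 to 14 in heart, 30 to 32 and 18 to 21 in muscle, and 19 to 27 and 16 to 18 in heart against muscle. Genotype medians then ranged from -0.02 to 0.12 in liver, -0.20 to -0.02 in brain, 0.03 to 0.19 in heart and 0.06 to 0.26 in muscle, with no gene called. The muscle median fell to 0.06 without KI3 and the heart median to 0.03 without KI3.

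Of the 164 counts of higher or lower genes, 158 stayed within 1.5 times. The genes lower in muscle than in liver numbered 12 with normexp, 11 with Rap1 KI/KI arrays only and 9 with slide as a block, those lower in heart than in liver 7 with slide as a block, those lower in heart than in muscle 12 with Rap1 KI/KI arrays only, and those higher in muscle than in liver 54 without a filter. Heart and liver, and muscle and liver, shared no slide. Normexp moved the median of all probes from -0.08 to 0.32 in muscle against liver and from -0.02 to -0.22 in heart against muscle, and the share of calls that were higher from 48.1% to 63.4% and from 49.5% to 34.2%. The channel genes then split 36 higher and 12 lower, and 19 and 21. The median over the channel genes fell from 5.04 to 2.83 with normexp in brain and from 1.23 to 0.57 without a filter in heart, turned from 0.22 to -0.19 and -0.07 under the same settings in heart against muscle, and was 1.61 in muscle with Rap1 KI/KI arrays only. The heart genotype median was 0.05 after quantile normalisation, 0.02 with normexp, 0.01 without a filter, 0.14 for genes above background on all arrays and 0.02 within the slide that held 4 hearts, and the liver median was -0.10 with normexp. Taking the mean over the probes of a gene turned Kcne1l to 2.08 in brain, 0.06 in heart and 0.10 in muscle, since its probes differ in sign. Kcne4 between liver genotypes turned to -0.12 with normexp, and the cause was not tested. Without WT1 the interaction called 4 probes and without WT3 1 probe, none of them a channel gene. Single named genes were recomputed together with the counts of genes at an unadjusted p under 0.05. Of these values, 1530 kept their direction and call or, for counts, stayed within 1.5 times. The 27 that moved were all counts. Among single genes, 9 values lost the call and 4 turned, those of Kcne1l and Kcne4.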
